A study of Mus musculus with 10 samples.

Results

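A set of 9 genes of the B lymphocyte were followed in the neonatal mouse thymus: the antigen receptor chains Igkc, Ighm, Cd79a and Cd79b, the surface receptors Ms4a1 and Cd22, the kinase Blk, and the transcription factors Pax5 and Ebf1. These 9 of the 35375 features of the count table were selected on earlier results of the same libraries, by their names and by the near absence of Igkc in homozygous Usp7 knockout (KO) animals. The levels in homozygous KO are therefore described here with no p-value of their own, and counts of called members stand only beside the share called over all genes. The tests are kept for heterozygous KO against wild type and for genes outside the 9. Total RNA was sequenced from the whole thymus of C57BL/6J mice at 3 days after birth, after removal of ribosomal RNA. Usp7 encodes a deubiquitinase, and the labels give its knockout as one of the hematopoietic system, on both alleles in 3 animals (homozygous KO) and on a single allele in 3 animals (heterozygous KO), beside 4 wild-type animals. Wild types of 2 forms are described in the series, 2 animals with cre and 2 without, but which library carries cre is not given, and neither is the promoter that drives cre in the sources used here. The titles write wild types 1 and 2 as wt.wt and wild types 3 and 4 as a single wt, for which the count table's column names add het. All 4 were kept as wild type by their titles, and no label ties either form to cre.

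B lymphocytes read antigen with an immunoglobulin made of heavy and light chains, which is held at the surface by a signalling pair of proteins encoded by Cd79a and Cd79b. Each chain joins a variable region, put together from V, D and J gene segments, to a constant region such as that of Ighm or Igkc. Ebf1 and Pax5 are the transcription factors that set up and hold the B-cell programme. The thymus is a T-cell organ, but it is known to hold a small population of B cells that present antigen in the medulla.

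Wild-type libraries were the shallowest, with 39.8 to 86.4 M counts each, while heterozygous KO held 90.5 to 97.4 M and homozygous KO 92.3 to 122 M. Levels are in counts per M (CPM) after TMM scaling, a correction for library composition. Usp7 was at 303, 422 and 408 CPM in homozygous KO, at 472, 516 and 516 CPM in heterozygous KO, and at 589 to 676 CPM in wild type. The 3 ranges did not overlap, and their order was that of the labelled number of intact alleles. Against wild type, Usp7 fell in homozygous KO with a log2 fold change of -0.74 ± 0.11 (SE, adjusted p = 0.000525, edgeR quasi-likelihood test). In heterozygous KO the log2 fold change was -0.34 ± 0.11 (SE, adjusted p = 0.608), which did not pass. One wild-type library, wild type 2, stood above the rest for most of the 9 genes, so values without it are given for some of the results. Expression of Xist above 100 CPM was seen in 3 of 4 wild-type, 0 of 3 heterozygous KO and 1 of 3 homozygous KO libraries, so it was unequally spread over the groups.

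The constant region of the kappa light chain, Igkc (ENSMUSG00000076609, chr6:70726435-70726966 of GRCm38), was nearly lost in homozygous KO. Its raw counts there were 3, 0 and 0, against 172, 347, 443 and 692 in wild type and 468, 757 and 834 in heterozygous KO. In CPM the wild-type libraries were at 4.22, 8.35, 4.98 and 8.37, and the heterozygous KO libraries at 4.68, 7.92 and 9.08. Every homozygous library lay below every other library, and the single one with any count was at 0.026 CPM. Pooled over libraries, Igkc was 668-fold lower in homozygous KO than in wild type (95% interval 228 to 3244) and 735-fold lower than in heterozygous KO (251 to 3567). These exact intervals cover counting error only. Fewer B cells and less RNA per B cell cannot be told apart in whole tissue, here and in every result that follows.

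Ighm (ENSMUSG00000076617, chr12:113418558-113422730) encodes the constant region of the mu heavy chain, at a locus that T-lineage cells are also known to transcribe. It stayed at the same level in all 10 libraries. The values were 328, 320 and 286 CPM in homozygous KO, 318, 312 and 332 CPM in heterozygous KO, and 295, 339, 302 and 330 CPM in wild type. The groups overlapped fully, and the log2 fold change of homozygous KO against wild type was -0.02 ± 0.07 (SE). Ighm and Igkc thus stood at opposite ends of the 9 genes, at 98.5% and 0.134% of their mean wild-type levels.

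The signalling pair fell to intermediate levels. Cd79a (ENSMUSG00000003379, chr7:24897381-24902197) was at 1.61, 1.77 and 1.33 CPM in homozygous KO, at 4.55, 3.12 and 3.94 CPM in heterozygous KO, and at 5.08, 8.06, 4.39 and 4.34 CPM in wild type. Cd79b (ENSMUSG00000040592, chr11:106311341-106314762) was at 4.40, 7.06 and 6.85 CPM in homozygous KO, at 15.0, 17.3 and 18.1 CPM in heterozygous KO, and at 17.2, 23.1, 17.5 and 18.1 CPM in wild type. For both genes every homozygous library was below all others, while the other groups overlapped. The homozygous KO mean was 28.7% of wild type for Cd79a and 32.1% for Cd79b, far above the share left of Igkc.

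Of the surface receptors, Ms4a1 (ENSMUSG00000024673, chr19:11249675-11266241), which encodes CD20, was nearly lost. Its counts were 1, 1 and 0 in homozygous KO, against 119, 334, 298 and 296 in wild type and 332, 252 and 268 in heterozygous KO. Scaled, wild type was at 2.92, 8.04, 3.35 and 3.58 CPM and heterozygous KO at 3.32, 2.64 and 2.92 CPM. The pooled ratio to wild type was 635-fold lower (95% interval 175 to 5247), an interval that overlaps that of Igkc over most of its length. Cd22 (ENSMUSG00000030577, chr7:30865402-30880342), an inhibitory co-receptor, kept a trace in every homozygous library, at 0.087, 0.059 and 0.122 CPM. In heterozygous KO it was at 1.44, 1.25 and 1.12 CPM, and in wild type at 0.982, 4.14, 2.13 and 1.43 CPM. Wild type spread more than 4-fold for this gene, with wild type 2 the highest, and the homozygous KO mean was 4.11% of the wild-type mean.

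Blk (ENSMUSG00000014453, chr14:63372836-63417037), a Src-family kinase of the B-cell receptor that some T-lineage cells also express, was the member besides Ighm whose groups overlapped. It was at 8.85, 4.89 and 5.04 CPM in homozygous KO, at 7.48, 7.25 and 7.12 CPM in heterozygous KO, and at 9.80, 9.17, 14.1 and 7.55 CPM in wild type. The highest homozygous library lay above every heterozygous one. Its homozygous KO mean was 61.7% of the wild-type mean.

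The transcription factors differed from each other. Pax5 (ENSMUSG00000014030, chr4:44524757-44710487) had 7, 1 and 0 counts in homozygous KO, or 0.061, 0.010 and 0 CPM. It was at 1.09, 0.858 and 0.741 CPM in heterozygous KO and at 1.11, 1.66, 1.28 and 0.979 CPM in wild type, and the homozygous mean was 1.87% of wild type. Ebf1 (ENSMUSG00000057098, chr11:44617317-45008091), which stromal cells also express, kept 37.4% of its wild-type mean. It was at 0.382, 0.440 and 0.521 CPM in homozygous KO, at 0.720, 1.04 and 0.762 CPM in heterozygous KO, and at 0.909, 1.59, 0.990 and 1.29 CPM in wild type. No homozygous library of either gene reached any library of the other groups. Genes on the opposite strand overlap Ms4a1, Cd22, Ebf1 and Pax5. Whether reads were counted by strand is not given in the sources used here. Genes on the same strand overlap Pax5 (Mir5120) and Igkc (Gm30211), where counting by strand would not separate the reads. Both kinds of overlap make the counts of these members less certain.

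**Figure D1:**
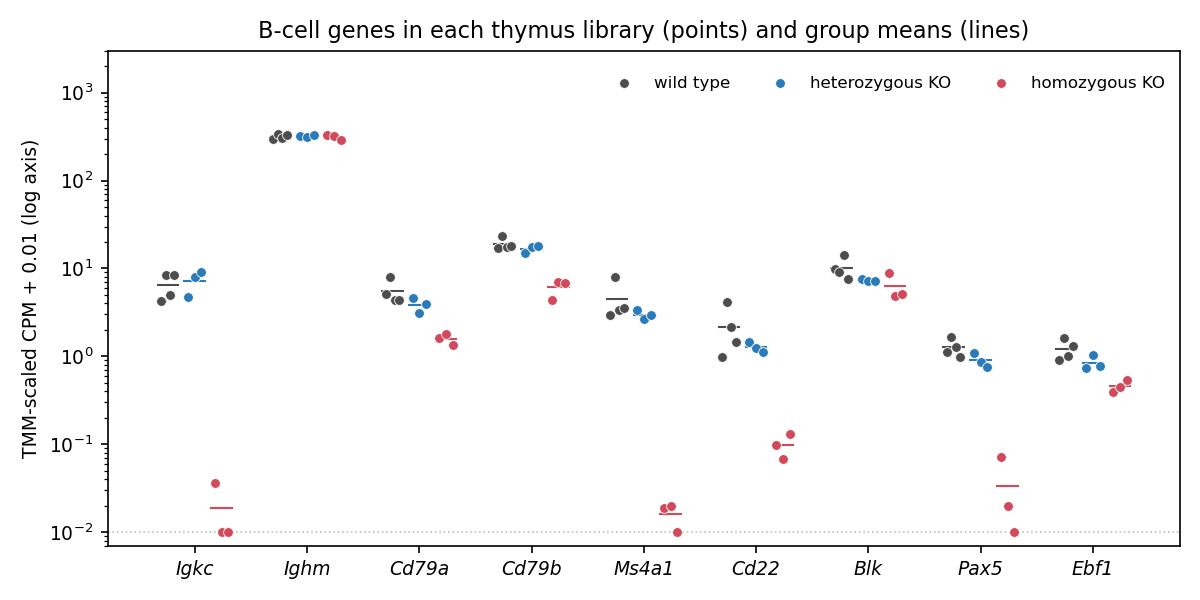
Level of each of the 9 B-cell genes in each library, as TMM-scaled CPM plus 0.01 on a log axis, with points for the 4 wild-type, 3 heterozygous KO and 3 homozygous KO libraries and lines at the group means. The dotted line is a count of 0. Igkc, Ms4a1 and Pax5 sit at or near that line in homozygous KO, Cd22 lies between 0.059 and 0.122 CPM, and the Ighm points of the 3 groups lie together between 286 and 339 CPM.

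In the fit over all genes, 7 of the 9 were called lower in homozygous KO than in wild type (adjusted p under 0.05), Blk and Ighm being the others, and 13.2% of the 19511 genes tested were called lower. Blk became called without homozygous KO 1 (log2 fold change -1.04) or without wild type 4 (-0.82). Against heterozygous KO, 6 of 9 were called lower, with Ebf1 no longer among them, beside 9.5% of all genes. With no overlap at all, 7 of 9 were lower in every homozygous library than in every wild-type library (16.4% of all genes tested) and 7 of 9 than in every heterozygous library (16.8%). Nothing is read from these counts, because the same contrast chose the genes. All 9 passed the filter on low counts, but only 5 of 9 were above its limit of 0.109 CPM in every homozygous library, against 9 of 9 in every wild-type and every heterozygous one. Relative to wild type, the median of the 9 log2 fold changes was -1.79, also with Igkc and Ms4a1 set to their pooled ratios, and the median of all genes tested was -0.01. The fitted values were -9.18 for Igkc and -9.13 for Ms4a1, which depend on the prior count of the fit and bound nothing. That of Pax5 was -5.54 ± 0.60 (SE), but 7 of its 8 counts in homozygous KO were in homozygous KO 1, and without that library it was -7.55. For the genes with more counts they were -4.59 ± 0.53 for Cd22, -1.79 ± 0.25 for Cd79a, -1.64 ± 0.17 for Cd79b, -1.41 ± 0.27 for Ebf1 and -0.70 ± 0.24 for Blk. With each library left out in turn, that of Cd22 ran from -4.85 to -4.09 and that of Cd79a from -1.89 to -1.55.

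Between genes, levels can be set side by side only per length, here as CPM per kilobase of annotated exon. In wild type the order of the means was Ighm at 168, Cd79b at 13.3, Igkc at 12.2, Blk at 3.76, Cd79a at 3.75, Ms4a1 at 0.723, Cd22 at 0.430, Pax5 at 0.142 and Ebf1 at 0.123 CPM per kilobase. The ranges over the 4 wild-type libraries overlapped for the neighbours Cd79b and Igkc, Blk and Cd79a, Ms4a1 and Cd22, and Pax5 and Ebf1, so those pairs have no order beyond their spread. In homozygous KO the order was Ighm at 165, Cd79b at 4.27, Blk at 2.32, Cd79a at 1.08, Ebf1 at 0.046, Cd22 at 0.018, Igkc at 0.016, Pax5 at 0.003 and Ms4a1 at 0.001 CPM per kilobase. There the libraries of Igkc ran from 0 to 0.049 and those of Cd22 from 0.012 to 0.024, so these neighbours overlapped. Cd79b (3.07 to 4.93) and Blk (1.81 to 3.28), Igkc and Pax5 (0 to 0.007), and Pax5 and Ms4a1 (0 to 0.002) overlapped too. The highest library of Igkc also reached into the range of Ebf1 (0.039 to 0.053). None of these pairs has an order beyond its spread.

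The members' start regions are shown because EBF1, the product of a member, is known to bind the Cd79a promoter. Regulation of the members by EBF1 was not tested. RefSeq promoters of GRCm38.p6 (250 bases before to 50 after a start) were found for 4 of the 9 genes: Cd79a, Cd22, Pax5 and Ebf1. Their starts are not the starts of the gene positions given above, which come from another annotation. The windows of Cd22 and Ebf1 lie inside those gene positions. That of Cd79a spans the gene start, and that of Pax5 lies before it. Positions below count from the RefSeq start. Capitals mark the motifs found on either strand among CAGGTG (an E-box, the kind of site that E proteins bind), TCCCNNGGG (an EBF1 core), CAAGGGAAT (the EBF1 site known from the Cd79a promoter), ATGCAAAT (the octamer) and CAGGAAG (an Ets core). No motif overlapped a different motif in these windows. In Cd22, TCCCNNGGG also matches on the opposite strand from the next base on. That overlapping match is not marked separately, so its last base is not in capitals. The windows of Cd79a (chr7:24897247-24897546, plus strand) and Cd22 (chr7:30878979-30879278, minus strand) read, 5′ to 3′:
Cd79a: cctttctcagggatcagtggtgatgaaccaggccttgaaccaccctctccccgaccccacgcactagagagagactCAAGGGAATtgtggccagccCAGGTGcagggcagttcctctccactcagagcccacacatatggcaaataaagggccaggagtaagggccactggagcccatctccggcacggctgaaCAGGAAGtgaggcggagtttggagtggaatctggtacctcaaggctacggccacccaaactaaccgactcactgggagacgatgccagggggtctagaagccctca
Cd22: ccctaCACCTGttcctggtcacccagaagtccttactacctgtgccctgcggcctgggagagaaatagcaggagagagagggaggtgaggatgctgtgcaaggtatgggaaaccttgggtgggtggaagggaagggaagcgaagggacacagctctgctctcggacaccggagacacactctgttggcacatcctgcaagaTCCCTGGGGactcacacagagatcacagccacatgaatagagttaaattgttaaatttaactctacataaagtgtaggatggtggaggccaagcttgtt
The first base of CAAGGGAAT lay at position -174, that of CAGGTG at -154 and that of CAGGAAG at -56 from the Cd79a start. In Cd22 the E-box lay on the opposite strand at -245 and TCCCNNGGG at -49. None of the 5 motifs was found in the windows of Pax5 and Ebf1. Over all 32851 promoters of the table, CAGGTG was found in 20.2%, CAGGAAG in 13.3%, TCCCNNGGG in 6.56%, ATGCAAAT in 1.74% and CAAGGGAAT in 0.244%. A match is a description of the letters, and CAAGGGAAT was taken from Cd79a itself.

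The comparison that did not choose the genes was heterozygous KO against wild type, which asks how the loss of a single allele moves them. None of the 9 passed. Across all 19511 genes edgeR called 3 (0.0154%) in either direction, and 1421 had an unadjusted p under 0.05, and 0 of those were among the 9. The log2 fold change was 0.16 for Igkc, with an approximate 95% interval of -0.57 to 0.88 (adjusted p = 0.948). For Ighm it was 0.02, the narrowest interval of the 9, from -0.12 to 0.17 (adjusted p = 0.967). The other 7 had values below 0, from -0.18 for Cd79b (interval -0.54 to 0.18) to -0.77 for Cd22 (-1.68 to 0.15), with adjusted p from 0.704 to 0.878. The median of the 9 was -0.48, beside -0.01 for all genes tested. Part of that rested on wild type 2. Without it, the log2 fold change went from -0.59 to -0.15 for Ms4a1, from -0.77 to -0.26 for Cd22 and from -0.49 to -0.25 for Cd79a, while that of Blk was -0.53. These misses do not show that heterozygous KO and wild type were alike, since the interval of Cd22, for one, reaches -1.68.

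**Figure D2:**
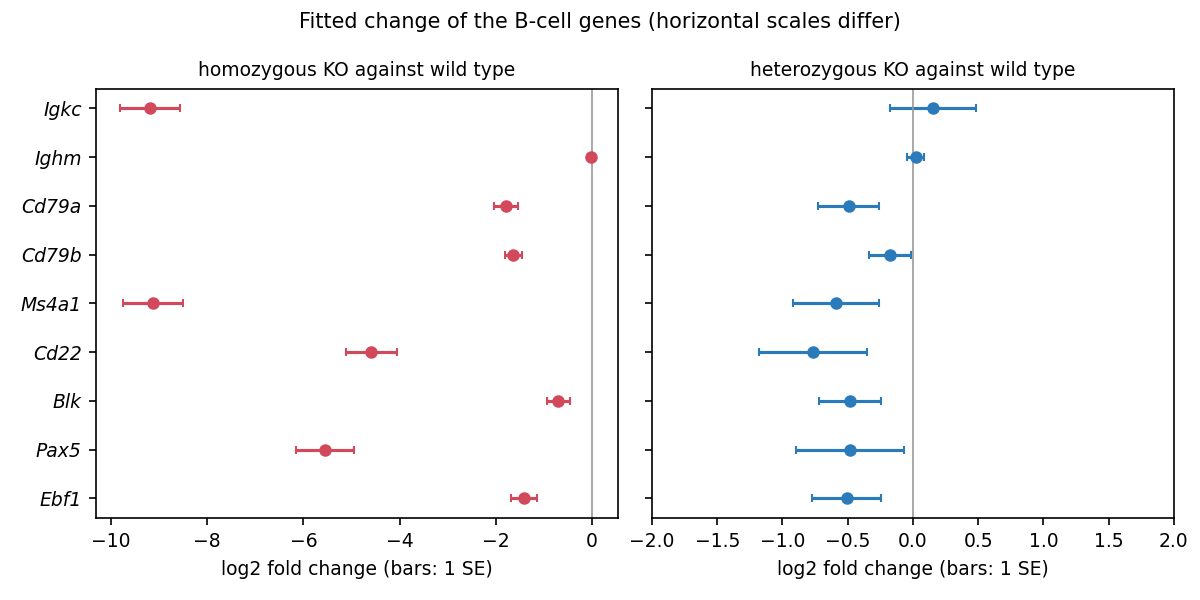
Log2 fold change of the 9 B-cell genes with 1 SE, in homozygous KO against wild type (left) and heterozygous KO against wild type (right). The horizontal scales differ, and both comparisons share the wild-type libraries. On the left the values run from -9.18 for Igkc to -0.02 for Ighm, and on the right from -0.77 for Cd22 to 0.16 for Igkc.

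The rest of the immunoglobulin loci was read from segment features, which the choice of members did not use, although Igkc shares its transcripts with the kappa V and J segments. Of 59 kappa V features (Igkv), 46 had counts in some library and 0 had a count in any homozygous library. Their sum was at 1.15, 2.26, 1.40 and 2.03 CPM in wild type and at 1.46, 2.36 and 4.61 CPM in heterozygous KO, from 433 and 794 counts. Against the floor of 3 counts over the group, it was at least 175-fold lower in homozygous KO than in wild type and at least 283-fold lower than in heterozygous KO. The segments with most counts were Igkv5-39, Igkv6-32 and Igkv4-57, each of which was highest in heterozygous KO 3, at 0.99, 0.72 and 0.74 CPM. The 5 kappa J features held 34 counts in wild type, 39 in heterozygous KO and 0 in homozygous KO, at least 13.7-fold lower than wild type.

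The lambda loci were empty as well. The 3 lambda V features (Iglv) had 128 counts in wild type, 106 in heterozygous KO and 0 in homozygous KO, at least 51.7-fold lower than wild type. The constant region Iglc2 was at 0.516, 1.20, 0.506 and 0.738 CPM in wild type, at 0.370, 0.618 and 0.664 CPM in heterozygous KO and at 0 in all homozygous libraries, at least 71.5-fold lower than wild type. Both light chain types were thus at or near 0 counts in homozygous KO.

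At the heavy chain locus, where Ighm did not move, the other segments did. The 27 heavy chain V features (Ighv) summed to 19, 43, 37 and 81 counts in wild type and to 74, 91 and 102 in heterozygous KO, but to 4, 2 and 1 in homozygous KO. In CPM that was 0.416 to 1.03 in wild type, 0.740 to 1.11 in heterozygous KO and 0.011 to 0.035 in homozygous KO. The 4 heavy chain J features (Ighj) kept more, with 16, 7 and 10 counts or 0.068 to 0.139 CPM in homozygous KO, against 0.520 to 0.746 CPM in wild type and 0.461 to 0.620 CPM in heterozygous KO. Homozygous libraries lay below all others for both sums. How reads across 2 segments were counted is not given in the sources used here, so these sums may miss rearranged transcripts.

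Between heterozygous KO and wild type the summed V segments did not differ beyond the spread of animals. The mean log2(CPM + 0.01) was higher in heterozygous KO by 0.60 for Igkv (p = 0.229, exact two-sided permutation test over 35 splits) and by 0.46 for Ighv (exact permutation p = 0.343). For Iglv it was lower, with a difference of -0.50 (exact permutation p = 0.343). The smallest p this design allows is 0.0286.

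**Figure D3:**
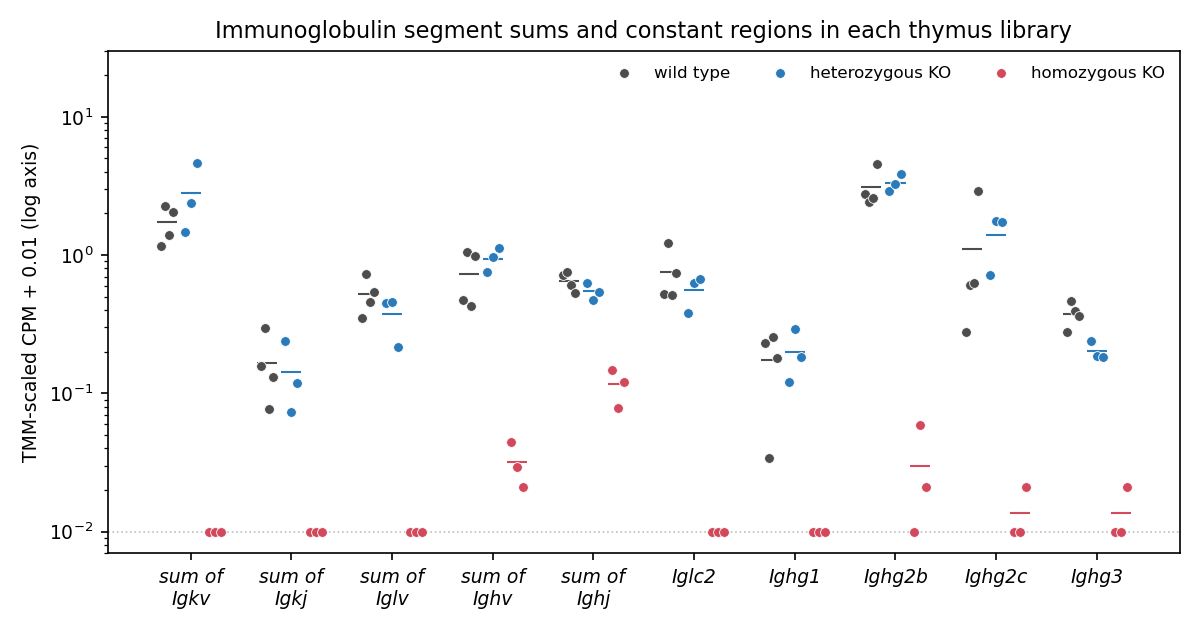
Summed V and J segments of the kappa, lambda and heavy chain loci and 5 further constant regions in each library, as TMM-scaled CPM plus 0.01 on a log axis, with lines at the group means. The dotted line is a count of 0. Igkv, Igkj, Iglv, Iglc2 and Ighg1 are on that line in all 3 homozygous KO libraries, and Ighj lies between 0.068 and 0.139 CPM there.

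Other genes of the B lineage were taken from a list of 49 outside the 9, of which 45 had a row and 42 were tested. Relative to wild type, 28 of the 42 fell in homozygous KO and 1 rose, beside 13.2% and 12.5% of all genes called lower and higher. The median log2 fold change of the 42 was -1.20, also with the genes of few counts set to their ratios or bounds, against -0.01 over all genes. Of the 42, 39 were above the limit of the filter on low counts in every wild-type library, 41 in every heterozygous KO and 29 in every homozygous KO library. Under it in every homozygous library were 8, which passed the filter only through the other groups, and 7 of these are among the 28. The other 21 are among the 34 with a homozygous library at or above the limit. Against heterozygous KO 24 fell and 1 rose, beside 9.5% and 7.63% of all genes. In heterozygous KO against wild type 0 of 42 passed, and 5 had an unadjusted p under 0.05, beside 1421 of all 19511 genes tested. All of these 5 but Mzb1 were lower in heterozygous KO.

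Among 14 surface receptors, 10 fell against wild type, beside 13.2% of all genes called lower, and 8 to 11 did with a library left out. Fcrla and Fcrl1, among these 10, were under the filter's limit in every homozygous library. Both were tested only through their level in the other groups, so nothing is read from their calls. Fcrla, an Fc receptor-like protein of B cells, had 3 counts over the homozygous libraries and 397 over wild type, 160-fold lower (95% interval 54.5 to 781). Fcrl1, of the same family, was at 0.022 to 0.061 CPM in homozygous KO and at 0.686 to 0.982 CPM in wild type. Both resembled Cd22 and Pax5 in having only traces left. Fcmr, the Fc receptor for IgM, was more variable, from 0.221 to 2.43 CPM in wild type with wild type 2 the highest. Its log2 fold change was -3.37 ± 1.05 (adjusted p = 0.0363). The call of Fcmr was lost without homozygous KO 1 (adjusted p = 0.0711) or 3 (0.108), heterozygous KO 2 (0.0503) or 3 (0.0520), or wild type 2 (0.110, at a log2 fold change of -2.37). It was also lost with animal numbers (adjusted p = 0.0524) or Xist (0.192) as a term, and with wild types 1 and 2 alone (0.0543) or 3 and 4 alone (0.126) as controls. Without homozygous KO 2 the log2 fold change was -6.35. Tnfrsf13b, the receptor TACI, is given here after its values were seen, at 45.2 to 46.3 CPM in homozygous KO and 40.1 to 47.9 CPM in wild type.

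All 7 signalling genes downstream of the receptor fell against wild type, and 5 of 7 against heterozygous KO. Beside these counts stand 13.2% and 9.5% of all genes called lower. Btk, a kinase of B-cell receptor signalling, was at 0.529, 1.07 and 0.510 CPM in homozygous KO and at 3.74 to 6.39 CPM in wild type, with a fitted log2 change of -2.82 ± 0.31 (adjusted p = 8.78e-05). The adaptor Blnk fell by 2.52 on the log2 scale and the adaptor Bank1 fell by 2.43. Plcg2, a phospholipase, fell by 1.22. None of these 4 was under the filter's limit of 0.109 CPM in any homozygous library. Plcg2 kept 7.28 to 11.5 CPM there, but Blnk only 0.573 to 0.732 CPM and Bank1 only 0.252 to 0.655 CPM. The weakest of the 7 was Syk, named here after its values were seen, at -0.19 (adjusted p = 0.0465). With each of the 10 libraries left out in turn, Syk was called in 2 of 10 fits and the kinase Lyn in 8 of 10, so that 5 to 7 of the 7 were called.

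Of 7 transcription factors 4 fell, beside 13.2% of all genes, as with any library left out. Bcl11a, needed early in B-cell development and also used by dendritic cells, was at 0.597 to 0.842 CPM in homozygous KO and at 4.50 to 7.34 CPM in wild type, with a fitted log2 change of -3.16 ± 0.23 (adjusted p = 5.36e-06). Irf8 fell by 1.58, Irf4 by 1.38 and the octamer co-activator Pou2af1 by 1.01 on the log2 scale. Irf8 and Irf4 are also factors of dendritic cells. The 3 tested genes of the pre-B receptor, Vpreb1, Vpreb2 and Vpreb3, did not pass, with log2 fold changes of -0.60, -1.07 and -1.17 and under 1 CPM in every library.

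All 5 tested constant regions other than Ighm and Igkc were called lower, but each was under the filter's limit in every homozygous library and was tested only through its level in the other groups, so nothing is read from their number. Ighg2b was at 2.75, 2.41, 2.59 and 4.57 CPM in wild type, at 2.88, 3.28 and 3.86 CPM in heterozygous KO, and at 0, 0.049 and 0.011 CPM in homozygous KO. Ighg1 had 46 counts over wild type and 0 over homozygous KO, at least 18.6-fold lower. Ighg2c had 332 counts over wild type and 1 over homozygous KO, a ratio of 402 (95% interval 71.7 to 15942). Of those 332 counts 241 were in wild type 4, and without it the ratio, looked at after the values were seen, was 164 (28.6 to 6532).

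Plasma cell genes divided. Of 6 tested, Prdm1 and Jchain fell, Mzb1 rose and Sdc1, Xbp1 and Derl3 did not pass. Of all genes, 13.2% were called lower and 12.5% higher. Prdm1, the factor of plasma cell differentiation that other immune cells also use, fell from 1.93 to 2.72 CPM in wild type to 0.698 to 1.10 CPM (adjusted p = 0.000631). Mzb1, a chaperone of the endoplasmic reticulum, was at 108, 98.4 and 110 CPM in homozygous KO, at 42.5, 47.8 and 46.3 CPM in heterozygous KO and at 35.2, 40.2, 39.9 and 41.2 CPM in wild type, with a fitted log2 change of 1.43 ± 0.07 (adjusted p = 5.10e-07). It was the only one of the 42 to rise, and its homozygous libraries were all above every other library. Spata24 overlaps Mzb1 on the same strand, which makes the counts of Mzb1 less certain. Of the other B-lineage genes named outside the 9, Fcrla, Iglc2, Irf8 and Pou2af1 also overlap a gene on their own strand. Btk, Bank1, Plcg2, Lyn, Bcl11a, Tnfrsf13b, Vpreb1 and Vpreb3 overlap a gene on the opposite strand. Their counts are less certain too, as the strand setting is not given. Jchain, which joins IgM and IgA into polymers, had a log2 fold change of -2.78 ± 0.88 (adjusted p = 0.0387). Its call was lost without homozygous KO 1 (adjusted p = 0.0550), 2 (0.113) or 3 (0.112), heterozygous KO 2 (0.0532), or wild type 2 (0.0643) or 4 (0.124, at a log2 fold change of -1.69). It was also lost with Xist as a term (adjusted p = 0.210), and with wild types 1 and 2 alone (0.121) or 3 and 4 alone (0.0538) as controls.

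**Figure D4:**
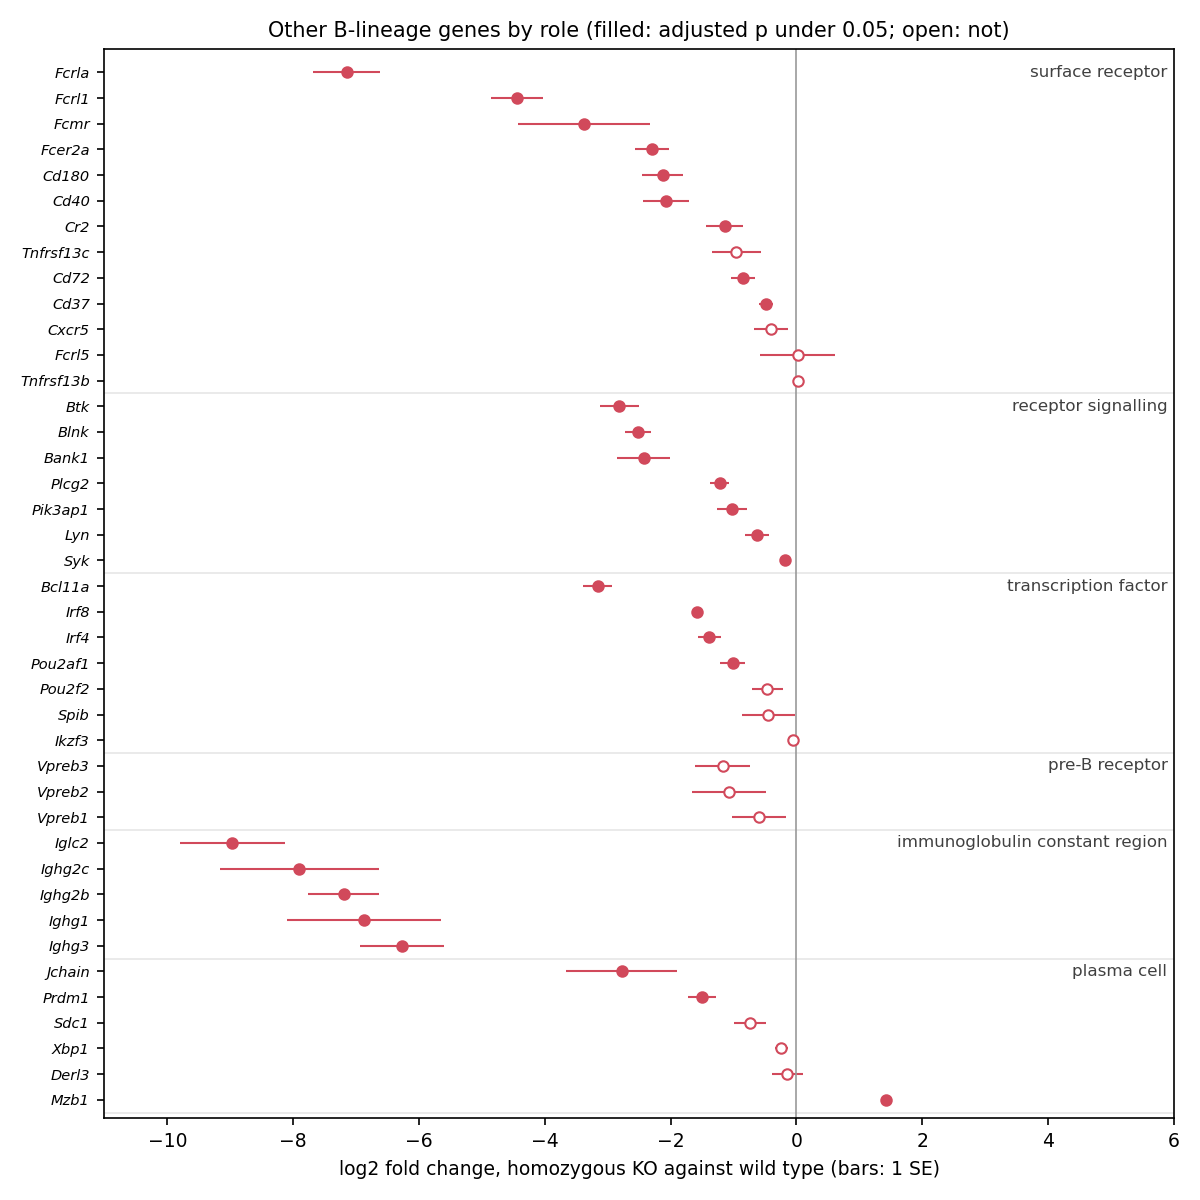
Log2 fold change with 1 SE of tested B-lineage genes outside the 9, in homozygous KO against wild type, grouped by role, with filled points for an adjusted p under 0.05. All filled points but Mzb1, at 1.43, lie below 0. The values of Iglc2, Fcrla and the Ighg genes rest on few or no counts in homozygous KO and depend on the prior count of the fit.

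Markers of several other cell types moved in homozygous KO beside the B-cell genes. Their counts stand beside 13.2% of all genes called lower and 12.5% called higher. All 8 dendritic cell markers fell, and their summed level was 7.10 to 20.1 CPM in homozygous KO against 67.1 to 105 CPM in wild type and 70.0 to 88.1 CPM in heterozygous KO. Of 4 plasmacytoid dendritic cell markers 2 fell, with sums of 1.85 to 4.54 CPM against 24.5 to 33.0 CPM in wild type. Of 6 macrophage and monocyte markers 5 fell, with sums of 34.1 to 62.9 CPM against 55.5 to 79.0 CPM. Of 7 neutrophil markers 5 rose, with sums of 51.5 to 283 CPM against 7.39 to 23.0 CPM. Of 8 thymocyte markers 1 fell and 2 rose, with sums of 8734 to 9053 CPM against 10433 to 11640 CPM. Of 5 fibroblast markers 3 rose, with sums of 5.97 to 18.3 CPM against 2.26 to 7.12 CPM. Of 4 NK cell markers 2 fell, with sums of 49.0 to 85.7 CPM against 70.4 to 79.9 CPM. Of 7 epithelial markers 1 fell and 1 rose, with sums of 88.1 to 196 CPM against 73.5 to 123 CPM. Of 8 erythroid markers 1 rose, with sums of 231 to 2306 CPM against 355 to 1871 CPM. Of 4 tested endothelial markers 0 passed, with sums over 5 markers of 151 to 158 CPM against 144 to 157 CPM, and 1 had an unadjusted p under 0.05. No marker of these lists was at 0 in every homozygous library, and neither was any of the 9 B-cell genes. The part of these cells in the levels of genes they share with B cells, such as Irf8, Irf4, Bcl11a, Btk and Blk, was not tested.

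Over the 7 wild-type and heterozygous KO libraries, a variation that the choice of genes did not use, 7 of the 9 were highest in wild type 2: Cd79a, Cd79b, Ighm, Ms4a1, Cd22, Ebf1 and Pax5. Igkc was highest in heterozygous KO 3 and Blk in wild type 3. In wild type 2 the level was above the median of the 7 libraries by 1.53 on the log2 scale for Cd22, by 1.27 for Ms4a1, by 0.88 for Cd79a and by 0.09 for Ighm. Of the 36 pairs of members, none had an adjusted p under 0.05 for Pearson's r or Spearman's rho (exact permutation tests), and the smallest adjusted p for r was 0.139. The median r was 0.54, from -0.54 to 0.92. It was 0.57 after removal of the group means and 0.79 after removal of the means of the 2 ranges of animal numbers, but 0.13 without wild type 2. The highest pair, Ms4a1 and Cd22, had r = 0.92 (exact permutation p = 0.0127, adjusted p = 0.139) and rho = 0.75 (exact permutation p = 0.0663, adjusted p = 0.396), with r = 0.71 without the 2 libraries farthest from the median of Ms4a1. The relation between members therefore rested on wild type 2 in large part.

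**Figure D5:**
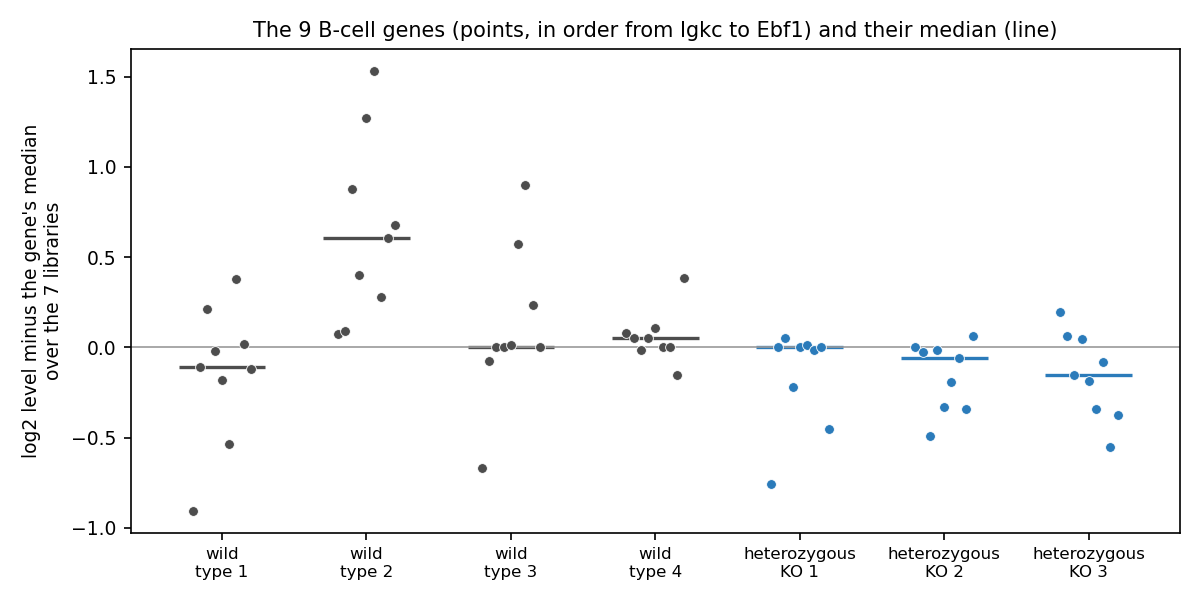
Level of the 9 B-cell genes in each wild-type and heterozygous KO library, as the log2 difference from the gene's median over these 7 libraries, with a line at the median of the 9. Points in each column run in the order Igkc, Ighm, Cd79a, Cd79b, Ms4a1, Cd22, Blk, Pax5, Ebf1. All 9 are above 0 in wild type 2, where Cd22 reaches 1.53, and Igkc is at -0.91 in wild type 1.

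The genes most like the members over these 7 libraries, among 14273 searched outside both lists, were Mef2c (r = 0.97 with the mean standardised level of the 9), Chst3 (0.97), Zfp69 (0.96), Mri1 (0.95) and B3gnt9 (0.95). All of them were highest in wild type 2, and without that library r was between 0.65 and 0.85. These genes were picked for the highest r among 14273 over only 7 libraries. High values come with such a search, so r is a description and no p is given for it. Mef2c, a transcription factor used in B cells and other cells, also fell in homozygous KO, to 0.364, 0.528 and 0.421 CPM from 3.58 to 7.15 CPM in wild type, with a fitted log2 change of -3.51 ± 0.26 (adjusted p = 6.45e-06). Chst3, a sulfotransferase, fell from 0.93 to 3.88 CPM in wild type to 0.08 to 0.16 CPM, a log2 fold change of -4.08 ± 0.54 (adjusted p = 0.000296). Zfp69, Mri1 and B3gnt9 did not pass there, with log2 fold changes of 0.03, 0.38 and 0.24. Of all genes tested, 13.2% were called lower in homozygous KO than in wild type.

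The titles hold animal numbers, which fall in a range from 44 to 51 and another from 56 to 63, with 5 libraries each. The earlier range holds 3 wild types, 1 heterozygous KO and 1 homozygous KO, and the later range 1, 2 and 2. What the ranges stand for is not labelled. The difference between ranges was looked at after the data had been seen, as a second term in the fit, and 6.77% of all genes tested were called for it in either direction. None of the 9 was called. The nearest was Blk, lower in later numbers with a log2 difference of -0.49 ± 0.16 (adjusted p = 0.0948), and Igkc had 0.59 ± 0.31 (adjusted p = 0.295). Ighg2c was higher in later numbers by 1.95 ± 0.35 (adjusted p = 0.0102), with 1.75, 1.73 and 2.91 CPM in the later wild-type and heterozygous libraries and 0.270 to 0.710 CPM in the earlier ones. Jchain went the same way, at 1.30, 1.66 and 1.63 CPM against 0.172 to 0.602 CPM, but did not pass (adjusted p = 0.140). Within the ranges, the mean level in homozygous KO relative to wild type differed by -1.86 and -1.49 on the log2 scale for Cd79a, by -2.13 and -1.38 for Cd79b, by -4.80 and -3.98 for Cd22, by -1.61 and -1.43 for Ebf1, and by -0.32 and -0.60 for Blk, for earlier and later numbers respectively. For Ighm these values were 0.07 and -0.12. Each rests on 1 to 3 libraries a group and was not tested.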

How the data were processed

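The authors deposited a single table of raw read counts per gene (10 libraries, 35375 features), unnormalized. The submitters' processing notes name CASAVA, STAR 2.4.1d, HTSeq 0.6.1p1 and NCBIM37 (mm9), while the study's methods describe a BWA-based pipeline with human references. The strand setting and annotation release are not given in the sources used here. Libraries were grouped by their titles, and columns matched by animal and library number. Symbols and GRCm38 positions came from GENCODE M21, which matched 30204 of 34467 Ensembl identifiers. The 908 features with other names (1.74% to 2.29% of counts) stayed in the totals. No libraries within a group agreed within sampling noise.

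The fit was edgeR 4.0.16 in R 4.3.3 (TMM, filterByExpr, glmQLFit, glmQLFTest) over all 10 libraries, with 3 comparisons and Benjamini-Hochberg adjustment over 19511 genes, after a test on simulated data. The common biological coefficient of variation was 0.207. Each library is taken as 1 animal from its number, so p-values measure the spread between these libraries. SE is the absolute log2 fold change over the square root of F, and approximate intervals take the t quantile at the fit's degrees of freedom. The members and lists were chosen with earlier results of these data known. Named were all 9 members, per role up to 4 other called genes of largest change, the segments with most counts and the 5 most alike genes. A gene of the list is counted but not reported here by name. Alternatives were DESeq2 1.42.0, library totals alone, other filters and pseudocounts, a replicate block, animal number or Xist as a term, either wild-type title form, and each library left out. The ratio of Ighg2c without each wild type was added after the data had been seen. Depth limits low genes: 3 counts were the floor, and counting intervals are exact at 95%.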

Additional observations from a re-analysis of the deposited data

Results flagged for a closer look

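In the group of 4 wild-type libraries, 1 library lay far from the other 3, by Dixon's test at the 95% level, for 4 of 31 features looked at. That level stands for about 1 in 20 for a single feature. All 31 features come from the same 4 animals, so their flags are not independent. The count is therefore not weighed against that share. Cd79b was highest at 23.1 CPM and Ms4a1 at 8.04 CPM, both in wild type 2. Ighg2b was highest at 4.57 CPM and Ighg2c at 2.91 CPM, both in wild type 4, the wild type with a later animal number.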

How the results depend on the processing

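The counts of genes called kept within 1.5 times of their values under all alternatives run, for the 9 genes and for the 42 other B-lineage genes in each comparison. In homozygous KO against wild type, 7 to 8 of the 9 and 23 to 30 of the 42 were called. In heterozygous KO against wild type 0 of either were called under every alternative, DESeq2 included. The eighth gene was Blk, called by DESeq2, with library totals alone, with no filter, with the replicate block, and without homozygous KO 1 or wild type 4. Against heterozygous KO, 6 to 7 of the 9 were called, the seventh being Ebf1. The median r between members was 0.133 without wild type 2. Signs changed only for values near 0 or far from passing. Leaving out 1 library at a time, the log2 fold change of Ighm ran from -0.0656 to 0.0411 in homozygous KO against wild type, from -0.0116 to 0.0551 in heterozygous KO against wild type and from -0.0921 to 0.0145 in homozygous against heterozygous KO, and that of Igkc in heterozygous KO from -0.0408 to 0.399. With animal numbers as a term, Igkc in heterozygous KO was at -0.11, and with Xist as a term Cd22 was at 0.19. The replicate numbers do not pair the animals (same-numbered deviations correlated from -0.15 to 0.32), and a replicate block gave 8 of 9 and 27 of 42 called in homozygous KO against wild type. Under the block Jchain was at -1.47 (adjusted p = 0.199). The summed V segments of heterozygous KO against wild type kept their direction, from 0.17 to 0.99 for Igkv. The causes were not tested. In the shallowest libraries, at 39.8 and 41.0 M counts, genes such as Ighg1 and Pax5 rest on 1 to 69 counts.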
